A study of Mus musculus with 16 samples.

Results

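The genes described here encode the calcium pumps of the sarcoplasmic and endoplasmic reticulum, together with short membrane proteins that bind to them. The 7 members were taken by their gene name in the deposited gene annotation, out of 50578 genes. They are the pump genes Atp2a1, Atp2a2 and Atp2a3, and the micropeptide genes Sln, Pln, Mrln and Gm34302, the last being the annotation's name for Strit1. The study grew mouse macrophages from bone marrow with the growth factor M-CSF (50 ng per ml, 7 days) and exposed part of them to lipopolysaccharide (LPS), a molecule of the bacterial envelope that macrophages sense. Its 16 libraries comprise RNA-seq of wild-type C57BL/6 cells (3 LPS and 3 untreated), ribosome profiling of wild-type C57BL/6 cells (2 LPS and 2 untreated) and RiboTag of LysM-Cre x RiboTag cells (2 untreated, 2 after 6 h and 2 after 24 h of LPS). In RiboTag, ribosomes that carry a tagged subunit are pulled down with the RNA on them, and the LysM promoter limits the tag to cells of the myeloid lineage. The sample labels give the hours of LPS for RiboTag, and not for the RNA-seq and ribosome profiling libraries. The strain background of the RiboTag mice is likewise absent from these labels. The titles of all 4 ribosome profiling libraries carry CHX (cycloheximide), so untreated there means without LPS.

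The pumps, known as SERCA, use ATP to move calcium from the cytosol back into the internal store. Atp2a1 is known as the pump of fast skeletal muscle, Atp2a2 as the pump of heart and slow muscle and, in another splice form, of most other cells, and Atp2a3 as a pump of blood cells, platelets and some epithelia. Phospholamban (Pln) in heart and sarcolipin (Sln) and myoregulin (Mrln) in muscle lower the pump's activity, whereas the product of Strit1, known as DWORF, opposes the inhibitors. Myoregulin and DWORF were found in RNAs once annotated as non-coding, and the study concerned the translation of such non-canonical reading frames. The file used here holds gene models and no value per library, so levels of these genes, their response to LPS and the cells' marker genes were not analysed here. Every value below describes a gene model or, where stated, a RefSeq promoter window in build mm10, with positions counted from 1. None has a replicate error.

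The 7 genes carried 24 transcripts, of which 13 had a coding sequence (CDS) and 12 a complete one with both a start and a stop codon. A CDS was present in 5 genes, the 3 pumps with Sln and Pln. The other 2 genes, Mrln and Gm34302, had none in any of their 6 transcripts. The genes lay on 6 chromosomes, with only Pln and Mrln on the same one, chromosome 10.

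Sln, which encodes sarcolipin, lay on the plus strand of chromosome 9 from 53850251 to 53853844. It had 1 transcript of 2 exons, 515 spliced bases and an intron of 3079 bases. The CDS ran from 53853473 to 53853565 and held 31 codons, not counting the stop codon. The first exon, of 76 bases, was wholly untranslated, and a further 67 untranslated bases preceded the start codon in the second exon, 143 in all. The stop codon was followed by 276 bases. CDS and stop codon together made up 18.6% of the spliced RNA. A complete CDS was present in 21598 protein-coding genes, and in 5 of them, Sln included, the longest had at most 31 codons.

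Pln, which encodes phospholamban, lay on the plus strand of chromosome 10 from 53337686 to 53345999. Its 2 transcripts carried the same CDS of 52 codons, from 53343864 to 53344019. They differed by an untranslated exon of 127 bases, from 53341982 to 53342108, which Pln-202 included and Pln-201 lacked. The 5′ untranslated region therefore had 344 bases in Pln-202 and 217 in Pln-201, longer than in 83.3% and 67.5% of the protein-coding genes. The 3′ untranslated region had 1977 bases in both transcripts, 12.7 times the length of the CDS, against 2.97 times in Sln. It was longer than in 91.1% of the 605 genes with at most 100 codons, whereas that of Sln was longer than in 54.7% of them. The median over these 605 genes was 235 bases (quartiles 119 and 716). The CDS with its stop codon took up 6.76% of Pln-201 and 6.41% of Pln-202.

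In both Sln and Pln the whole CDS lay in the last exon, behind at least 1 untranslated exon. This arrangement was found in 51 of the 605 genes with at most 100 codons (8.43%) and in 1009 of all 21598 (4.67%). The start codon lay 67 bases into the last exon of Sln and 107 bases into that of Pln.

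**Figure D1:**
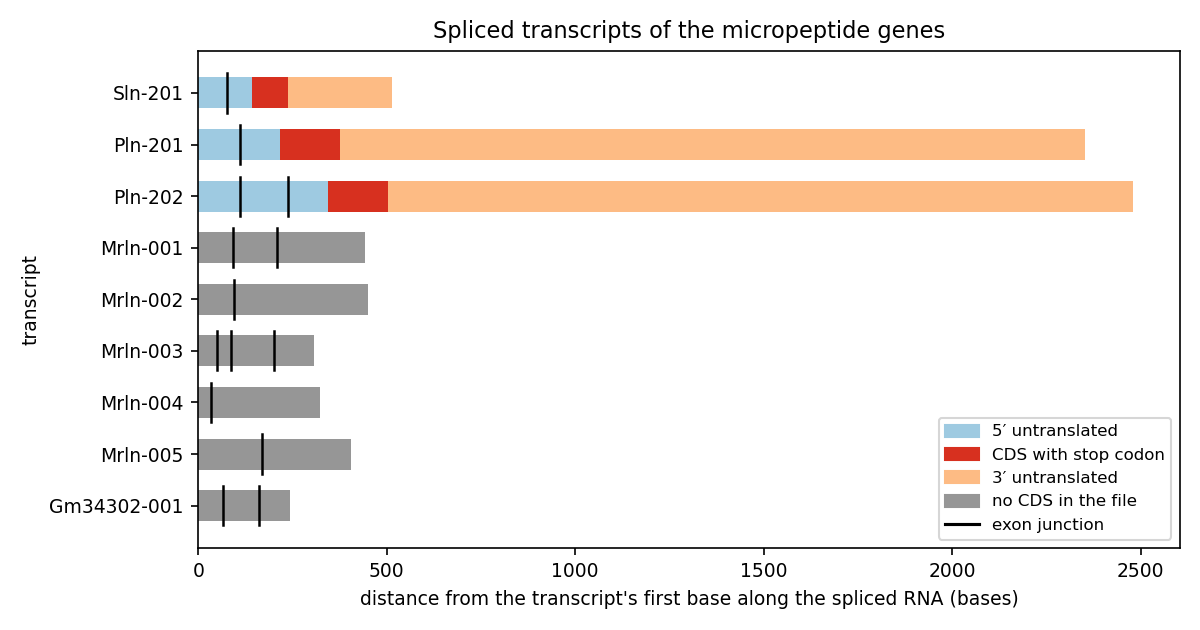
Spliced transcripts of the 4 micropeptide genes, 1 row each, drawn along the RNA in bases from the first base, with exon junctions as black lines. Red marks the CDS with its stop codon, blue and orange the untranslated parts, and grey a transcript with no CDS in the annotation; the CDS of Sln and Pln follows the last junction, and the 1977 bases behind the Pln CDS are the longest segment.

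Mrln, the myoregulin gene, was annotated as a processed transcript on the plus strand of chromosome 10 from 70204664 to 70219711. It had 5 transcripts of 2 to 4 exons and 306 to 451 spliced bases. Of these, 4 were lincRNAs and 1, Mrln-005, a retained intron. The 4 lincRNAs began at different bases but ended their first exon at the same splice site, 70204759. From there they continued to different exons. Mrln-001 joined an exon of 115 bases at 70216952 and a last exon of 235 bases at 70219477, across introns of 12192 and 2410 bases. Mrln-003 placed an exon of 37 bases before these, and its last exon, of 104 bases, began at the same base and ended earlier. Mrln-002 and Mrln-004 ended in exons of 355 bases at 70214931 and 287 bases at 70210660 that no other transcript of the gene used. The exon at 70219477 was thus shared by 3 of the 5 transcripts, counting Mrln-005. Ensembl's transcript support level, on which 1 is the best supported and 5 the least, was 1 for Mrln-001 and 3 for the other 4.

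A second model without a CDS, 2310015B20Rik of RefSeq source, repeated all 3 exons of Mrln-001. It covered 443 of the 1180 merged exon bases of Mrln on the same strand (37.5%). On the same strand, the other 6 members had no exon base in common with a different gene.

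Gm34302, the Strit1 gene, occupied positions 63481112 to 63483879 of chromosome 3, minus strand, and was classed as lincRNA. Its only transcript had exons of 65, 96 and 82 bases, introns of 2433 and 92 bases, and support level 5. At 243 spliced bases it was longer than 1.89% of the 6497 long non-coding genes, and Mrln, with 451 in its longest transcript, was longer than 13.9%. The median of that class was 968 bases (quartiles 581 and 1933).

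The RefSeq genes of GRCm38.p6, a patch release of the mm10 build, listed all 7 genes as protein-coding, including Mrln and Strit1. They gave 1 curated (NM) and 1 predicted (XM) transcript for Mrln and 2 curated transcripts for Strit1. For Mrln, Pln and Atp2a2 the first and last bases in RefSeq were the same as in the deposited annotation. Strit1 differed at both ends. Its deposited first base lay 27 bases downstream of the one in RefSeq and its last base 17 bases short. The other differences were 5 bases at the start of Atp2a1, 5 at the end of Sln and 1 at the end of Atp2a3.

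Promoter windows from RefSeq (GRCm38.p6, 250 bases before to 50 after a start) were found for 5 of the 7 genes, Atp2a1, Atp2a3, Pln, Mrln and Strit1. The stretches below are the 30 bases that end just before the first deposited base, 5′ to 3′ on the gene's strand. They are shown because the starts of Gm34302 and Strit1 differ there. Capitals mark either of the motifs TATTTAA (a variant of the TATA box) and GGGCGG (the core of the GC box), on either strand. The Atp2a1 window held neither.
Gm34302, chr3:63483880-63483909, minus strand: TATTTAAagttcaaagaggtgcaggataac
Mrln, chr10:70204634-70204663, plus strand: acactcggagccagttactaataacagccc
Pln, chr10:53337656-53337685, plus strand: aagacctccctagaatcctttttctcctcc
Atp2a3, chr11:72961139-72961168, plus strand: gtgcaGGGCGGgtcccgcgCCGCCCCGCCC

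In Gm34302 the TATTTAA began 30 bases before the deposited first base and 3 bases before the RefSeq start. It was in 1 of the 5 members' windows and in 4.51% of all 32851 windows (either strand). GGGCGG was found only in the Atp2a3 window among the 5, with 5 matches over both strands, 3 of them in the stretch shown. Neighbouring matches overlapped by 1 base at the end of that stretch. It was in 35.7% of all windows. The motifs were chosen after the sequences were seen, and a match is a description of the letters only.

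CANNTG, the E-box core bound by myogenic factors such as MyoD among many other proteins, was present in 4 of the 5 windows and in 72.3% of all windows. Its form CAGCTG was present in 3 of the 5 (Atp2a1, Pln and Strit1) and in 16.3% of all. CAGCTG was singled out among the forms present. The windows of Pln and Strit1 also held other forms of CANNTG, and that of Mrln held only other forms. Whether either motif is enriched in these windows was not tested, and a match describes the letters only. The CANNTG match nearest to the start on the upstream side is in capitals in each stretch. The stretches are shown because Atp2a1, Pln, Mrln and Strit1 are known for their expression in muscle. In Pln the CAGCTG lay 8 bases after the start, outside the stretch shown.
Atp2a1, chr7:126463111-126463140, minus strand: cctcataaggacCAGCTGggggctgggggg
Gm34302, chr3:63483920-63483949, minus strand: gcaggagagcagCAGCTGccacactcttca
Mrln, chr10:70204559-70204588, plus strand: tagactctatccCACCTGtgtctgtcagtt
Pln, chr10:53337615-53337644, plus strand: tggctaaccaatCACATGttagaattccta

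The capitals began 20 bases before the deposited first base in Atp2a1, 58 in Gm34302, 93 in Mrln and 59 in Pln. The Atp2a1 window was set on a start downstream of the deposited first base, and the match began 55 bases before that start. In Gm34302 the match began 31 bases before the start of the window used for Strit1. Atp2a3 had no CANNTG in its window.

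Each pump gene had a longer span than any of the micropeptide genes. Atp2a1 spanned 17251 bases of chromosome 7 (126445858 to 126463108, minus strand), Atp2a2 48713 bases of chromosome 5 (122453513 to 122502225, minus strand) and Atp2a3 31876 bases of chromosome 11 (72961169 to 72993044, plus strand). They had 3, 5 and 7 transcripts in that order. Of these 15, 10 had a CDS and 9 a complete one. The longest CDS had 994 codons in Atp2a1, 1044 in Atp2a2 and 1038 in Atp2a3. The 5 transcripts without a CDS were processed transcripts and retained introns of 328 to 816 bases.

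The coding exons of the 3 pumps followed the same order of lengths. In the longest complete CDS, Atp2a1 had 22 coding exons, Atp2a2 20 and Atp2a3 22, and 17 lengths occurred in the same order in all 3. They run 118, 18, 83, 105, 139, 81 and 86 bases, then 89, 103 and 132, then 219, 336, 221, 203, 86, 134 and 118. Between these blocks there were 2 differences. The eighth coding exon, of 465 bases in Atp2a2 and in Atp2a3, was present in Atp2a1 as 2 exons of 298 and 167 bases, which add up to 465 and are separated by an intron of 176 bases. The next difference was an exon of 126 bases in Atp2a1 and Atp2a3 and of 123 bases in Atp2a2, which is 1 codon shorter. Up to the end of the last shared exon the CDS had 954 codons in Atp2a1, 953 in Atp2a2 and 954 in Atp2a3.

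**Figure D2:**
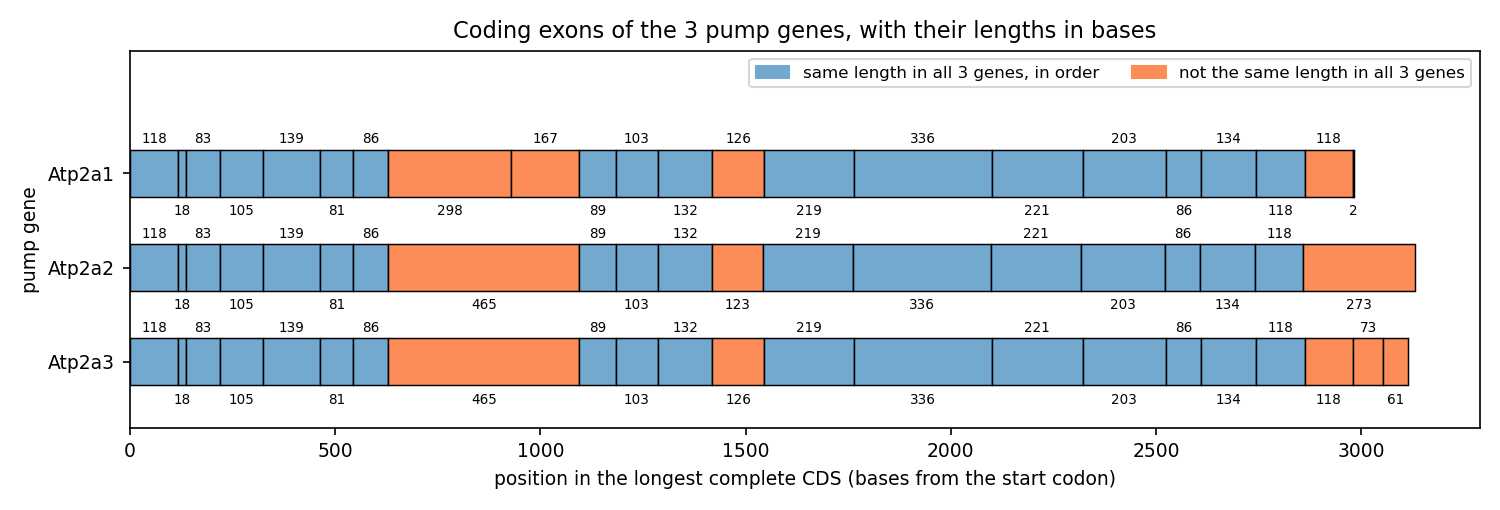
Coding exons of Atp2a1, Atp2a2 and Atp2a3 along the longest complete CDS, in bases from the start codon, with each length printed above or below its box. The 17 blue exons have the same length in all 3 genes and in the same order; orange marks the exon of 465 bases that is split in Atp2a1, the exon of 126 or 123 bases and the exons of the C-terminal end.

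Between pairs of the SERCA genes, 85.0 to 90.0% of the coding exons of the gene with fewer had a length shared in order. Between pairs of the plasma membrane pumps Atp2b1, Atp2b2, Atp2b3 and Atp2b4 the range was 65.0 to 85.0%, and between the Golgi pumps Atp2c1 and Atp2c2 it was 77.8%. Between a SERCA gene and Atp2b1 or Atp2c1, at most 2 lengths were shared in order. These shares were not tested, since genes of a family share their origin and are not replicates.

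The second coding exon, of 18 bases or 6 codons, was present in all 3 pumps. Among 16797 protein-coding genes with at least 3 coding exons, 310 (1.85%) had an internal coding exon of at most 18 bases and 74 (0.441%) had one of exactly 18. As the 3 pumps share this exon at the same place in the gene, they are not independent cases.

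The pump transcripts differed from each other mainly at the C-terminal end. The 9 complete transcripts used 6 different stop codons, 1 in Atp2a1, 2 in Atp2a2 and 3 in Atp2a3, and the incomplete Atp2a1-003 used a seventh. At least 2 stop positions were found in 22.2% of the 21598 genes and at least 3 in 6.69%.

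In Atp2a1-001 the stop codon lay in exon 22, an exon of 42 bases from 126446545 to 126446586. Only the first 2 bases of that exon were coding, and the stop codon was followed by 37 bases before the last exon junction, which placed the whole last exon of 269 bases in the 3′ untranslated region. Atp2a1-003, whose 5′ part is missing, skipped the exon of 42 bases and read 23 coding bases in the last exon. The tail after the last coding exon shared by the 3 pumps had 47 codons in Atp2a1-003 and 40 in Atp2a1-001. Both tails began with the same exon of 118 bases and differed only behind it. Joined to the body of Atp2a1-001, the longer tail would make a CDS of 1001 codons, 7 more than the 994 of Atp2a1-001. These 2 structures are those known as the neonatal form, without the small exon, and the adult form, with it.

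In Atp2a2 the 2 ends followed from 1 splice site. Atp2a2-002 left exon 20 after 124 coding bases and read 11 more in a last exon from 122453514 to 122454304. Atp2a2-001 did not use that splice site and read on for 149 coding bases to a stop codon in the same exon. The tail had 91 codons in Atp2a2-001 and 45 in Atp2a2-002, a difference of 46, and the stop codons lay 2860 bases apart in the genome. The longer tail is the form known from most cell types, which has an additional membrane helix, and the shorter one that of heart and slow muscle. The third coding transcript, Atp2a2-003, carried the CDS of Atp2a2-001 and was annotated as a target of nonsense-mediated decay. It held 1258 untranslated bases between stop codon and last exon junction. Decay is known to act on RNAs with an exon junction far behind the stop codon, and in Atp2a1-001 the distance was 37 bases. With 1 transcript taken per gene, that with the longest CDS, a stop codon before the last junction was found in 4.38% of the 21598 genes. Other transcripts of these genes were not counted in that share. Atp2a2 is among them through Atp2a2-003, which was taken over Atp2a2-001 for its longer spliced length.

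In Atp2a3 the last exon was read in all 3 frames. It began at 72991689 in every complete transcript. Atp2a3-202 entered it directly from the first tail exon and read 17 coding bases, giving a tail of 45 codons, as in Atp2a2-002. Atp2a3-201 first inserted an exon of 73 bases and then read 61, giving 84 codons. Atp2a3-203 used a splice site 13 bases further on, inserting 86 bases, and then read 12, giving 72 codons. The stop codons of Atp2a3-203 and Atp2a3-202 ended 5 bases apart and that of Atp2a3-201 a further 44 bases downstream. The full CDS had 999 codons in Atp2a3-202, 1026 in Atp2a3-203 and 1038 in Atp2a3-201. Support level 1 was given to Atp2a3-201 and Atp2a3-202 and 5 to Atp2a3-203.

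A second kind of variant in Atp2a3 lay inside the pump. In Atp2a3-001 and Atp2a3-002, coding exon 14 began 54 bases later and had 282 bases in place of 336. This removed 18 codons without a change of frame and left 1020 and 981 codons with the 2 ends described for Atp2a3-201 and Atp2a3-202. Both transcripts had support level 5.

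**Figure D3:**
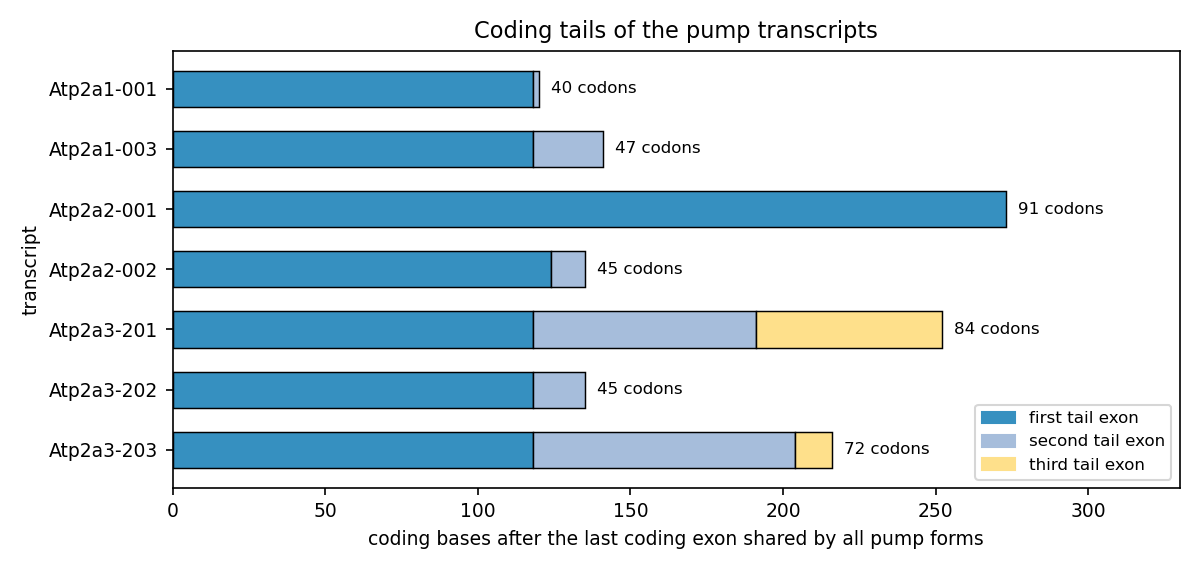
Coding bases after the last coding exon shared by all pump forms, for the 7 different ends, with exons in different colours and the number of codons at the right. Atp2a2-002 and Atp2a3-202 both end after 45 codons, and Atp2a2-001 has the longest tail, of 91 codons in 1 exon.

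The untranslated regions of the pumps differed in length. The 5′ untranslated region had 186 bases in Atp2a1-001 and 185 in all 5 complete Atp2a3 transcripts. In Atp2a2 it had 540, 210 and 489 bases in Atp2a2-001, Atp2a2-002 and Atp2a2-003, with the start codon at the same place and 3 different first bases. The value for Atp2a2-003, the nonsense-mediated decay transcript, was longer than in 91.8% of the 21598 genes. Those of Atp2a1 and Atp2a3 were longer than in 61.6% and 61.5%. The 3′ untranslated region had 306 bases in Atp2a1-001, 777 to 2050 in Atp2a2 and 1291 to 1340 in Atp2a3. The 2050 bases were those of Atp2a2-003, and the 811 bases of Atp2a2-001 were longer than in 57.3% of the genes. The medians over all protein-coding genes were 134 bases at the 5′ end (quartiles 57 and 264) and 608.5 at the 3′ end (quartiles 183 and 1513).

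**Figure D4:**
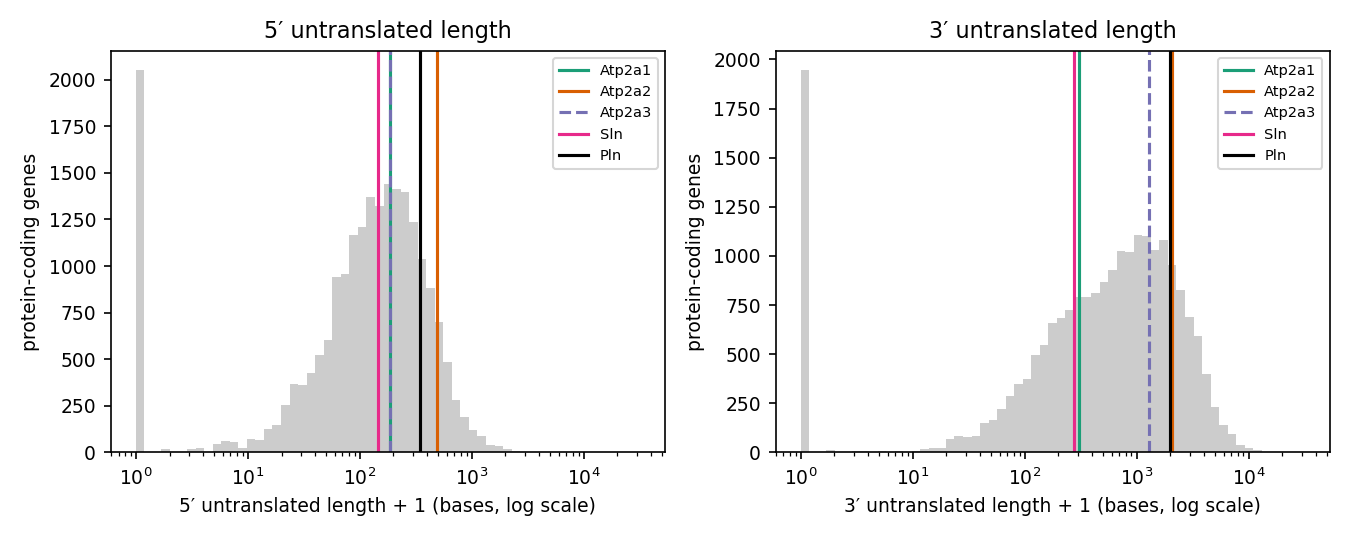
Distribution of 5′ and 3′ untranslated lengths over 21598 protein-coding genes (grey; length + 1, in bases on a log axis), with the 5 members that have a complete CDS as lines, each taken from its complete transcript with the longest CDS. Sln and Atp2a1 lie below the median 3′ length of 608.5 bases with 276 and 306 bases, and Atp2a3, Pln and Atp2a2 above it.

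Introns made up most of each pump gene. They summed to 13774 bases in Atp2a1-001, 42988 in Atp2a2-003 and 27282 in Atp2a3-201, or 79.8, 88.3 and 85.6% of the transcript's span. The median intron had 260.0, 761 and 633 bases in the same order. The longest intron was a different one in each gene. It was intron 9 of Atp2a1 with 2926 bases, at the position of intron 8 in the other pumps, intron 5 of Atp2a2 with 15947 bases and intron 1 of Atp2a3 with 9124 bases. At the first of the shared positions, intron 1 had 287 bases in Atp2a1 and 619 in Atp2a2.

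**Figure D5:**
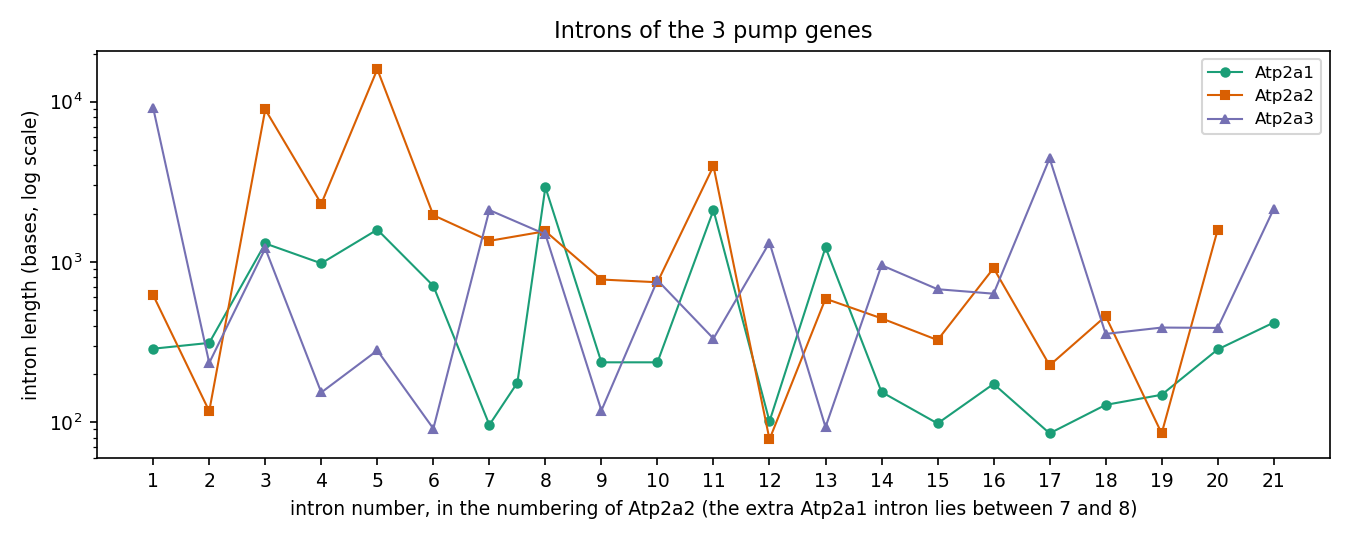
Intron lengths in bases (log axis) of Atp2a1-001, Atp2a2-003 and Atp2a3-201 by position, numbered as in Atp2a2, with the extra Atp2a1 intron of 176 bases between 7 and 8. Introns from 20 on lie behind the exons shared by all 3 genes and are not matched across all 3. Before intron 20, Atp2a1 and Atp2a3 both have an exon of 118 bases. The longest introns are 15947 bases (Atp2a2, intron 5) and 9124 bases (Atp2a3, intron 1).

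Other genes overlapped 4 of the members. On the opposite strand, Rabep2 covered 763 exon bases of Atp2a1 (21.9%), all of them by its processed transcripts, whereas its protein-coding transcripts overlapped 44. RP23-407I6.4, a model awaiting experimental evidence (TEC), covered 83 exon bases of Atp2a2 on the opposite strand, and RP23-407I6.5 and RP23-407I6.6 lay within its span on the same strand without touching an exon. Pln lay whole within intron 3 of Cep85l, a gene of 13 exons on the opposite strand, in an intron of 28752 bases, and shared no exon base with it. The RefSeq-source model Gm9766 had the same span as Cep85l. Mrln was overlapped by 2310015B20Rik, as given above. No label says whether counting used the strand, and without it unspliced reads within the bases shared with Rabep2 could not be assigned by position.

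The nearest protein-coding genes that did not overlap, on the left and right along the chromosome, were Anapc7 and Ift81 for Atp2a2, Zzef1 and P2rx1 for Atp2a3, Slc35f2 and Gm16380 for Sln, Slc35f1 and Gm5423 for Pln, Ccdc6 and Slc16a9 for Mrln, and Mme and Plch1 for Gm34302. On the right of Atp2a1 it was Sh2b1. The gaps between these genes ranged from 3885 bases, between Atp2a1 and Sh2b1, to 226063 bases, between Slc35f1 and Pln.

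Of a list of 38 genes of calcium stores and calcium transport, which includes the 7 members, all had a gene model. Of the 31 others, 30 had a complete CDS, with 65 to 5035 codons and a median of 837.5. The median over the 5 members with a CDS was 994 codons, the value of Atp2a1. At least 2 stop positions were found in 2 of the 5 members and in 6 of the 30 others, among them Atp2b2, Atp2b3, Atp2b4 and Atp2c1. The median 5′ untranslated length was 186 bases in the members and 237.5 in the others, and the median 3′ length 1291 bases in the members and 1016.5 in the others. The direction of the 3′ difference rested on the nonsense-mediated decay transcript Atp2a2-003, since without it the median of the members was 811 bases, below that of the others. An internal coding exon of at most 18 bases was present in the 3 pumps and in 8 of the 30 others.

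Relatives of the micropeptides in the list were 1810037I17Rik, which encodes the regulator another-regulin, and 1110017F19Rik, which encodes endoregulin. 1810037I17Rik was protein-coding with 65 codons, 257 bases before and 705 behind the CDS. Its stop codon was split by the only intron, so the CDS lay in the first of its 2 exons, unlike that of Sln and Pln. 1110017F19Rik was present as a RefSeq-source model with a CDS of 171 bases including the stop codon and no separate codon lines, and its locus was also annotated as Smim6, with 56 codons whole within the last of 2 exons, 446 bases before and 361 behind. Smim6 was added to the list after the values were seen.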

How the data were processed

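The authors deposited 1 gene annotation in GTF format for the whole series, with 1544831 lines and 115521 transcripts. Its deposited start and end positions and transcript support levels were used, and 0 lines carry a score, so depth and library comparisons were not analysed here. Per the submitters' processing notes, the build was mm10 and TopHat2 2.1.1 was among the tools. The labels say nothing of how the annotation was made.

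Lines were read with Python 3.11.15 and figures drawn with matplotlib 3.10.9. RefSeq gene and promoter tables of GRCm38.p6 gave the compared gene ends, transcript counts and motif shares. CDS lengths leave out the stop codon. Untranslated lengths and stop positions were taken where the start and the stop codon were both annotated. For 1 value per gene, the complete transcript with the longest CDS was taken, and of equal ones the longest spliced, which is Atp2a2-003 and Pln-202. Coding exons were compared by length in order. Alignment of the proteins was not run, since no protein sequences were used here. Functions were tested on simulated gene models. Members and lists were chosen with earlier results of these data known. Named were all members, the other calcium pumps, the 2 micropeptide relatives and neighbouring genes. Alternatives covered sources, transcript choice, strand and length tolerance.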

Additional observations from a re-analysis of the deposited data

How the results depend on the processing

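Of 95 alternative values, 82 stayed within 1.5 times of the reported one. Many of these could not differ, so the count does not measure how firm the results are. Every member transcript already came from an Ensembl source, so that restriction left transcripts, CDS and stop positions as they were. Sln and Atp2a1 had 1 complete transcript each, which fixed their untranslated lengths under every choice of transcript. The median 3′ untranslated length over the 5 members with a CDS, 1291 bases, became 811 with the median over complete transcripts and likewise 811 without the nonsense-mediated decay transcript Atp2a2-003, a setting chosen after seeing the data, since both replace the 2050 bases of that transcript in Atp2a2. Either value is below the 1016.5 bases of the other calcium genes as reported, so that difference turns its direction. Exon bases shared with another gene, 443 in all, became 1289 on either strand, which adds the opposite-strand overlaps of Atp2a1 and Atp2a2, and 0 among Ensembl models only, since 2310015B20Rik is then left out. For single genes, 9 of 76 values moved, 3 up and 6 down. Among them, curated transcripts fell to 4 of 7 in Atp2a3 and to 0 in Sln and Pln, which rest on Ensembl's automatic models, and Atp2a1 had 2 stop positions in place of 1 once its incomplete transcript was counted. The number of coding exon lengths shared by the 3 pumps was 17 as reported, 18 within 3 bases and 17 with the second-longest CDS. The planned identity between proteins was not run. No paired analysis was possible because the annotation holds models of genes, with nothing measured in a sample.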
